A study of Mus musculus with 9 samples.

Results

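Car4, Prx, Kit, Glp1r, Plvap, Cd93 and Emcn are 7 capillary marker genes of the lung, and all 7 had their highest level in cells sorted for the Foxf1 reporter alone, a lower level in cells with both reporters and the lowest in cells with the collagen reporter alone. The libraries of the 3 populations did not overlap for any of the 7, an order that 8.44% of all tested genes shared. They were taken from the deposited table by name, 7 of its 19348 genes. Car4 and Prx are linked to aerocytes, Kit, Glp1r, Plvap and Cd93 to general capillary cells, and Emcn to capillary endothelium as a whole. All 7 passed the filter on low counts, which left 15550 genes for testing. The rule names the genes and sets no threshold on a value, but the genes were named with earlier results of these data known.

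The alveolar capillary bed is built of a pair of intermingled endothelial cell types. Aerocytes, also called CAP2 cells, are large and thin and face the alveolar epithelium where gas is exchanged, and in mice they are known for Car4, Ednrb, Apln and Tbx2. General capillary cells, also called CAP1 cells, carry Kit, Gpihbp1 and Aplnr, have roles in vascular tone and immune cell traffic, and act in mice as progenitors of both types after injury. Foxf1 is a forkhead transcription factor of lung endothelium and mesenchyme, and type I collagen is a product of fibroblasts.

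The RNA-seq libraries came from sorted lung cells of mice of strain C57BL/6J that all carried the Col1_GFP and Foxf1_tdTomato reporters, so no library lacked either allele. DBL cells showed both reporters, TDonly cells showed the Foxf1 reporter alone and ColGFP cells showed the type I collagen reporter alone, with 3 libraries each. The age and sex of the mice, the number of animals per library, the sort gates and the design of the reporter alleles are not stated in the labels, and the labels' RNA protocol speaks of frozen lungs rather than sorted cells. Nothing says that the replicates came from separate animals, so p-values measure the spread between these libraries, which may be technical. Each library is bulk RNA: fewer cells of a type and less RNA per cell cannot be told apart.

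Total counts ran from 17820969 to 26147475 per library. The 7 genes took 0.205 to 0.289% of the counts in DBL, 0.681 to 0.745% in TDonly and 0.0356 to 0.0564% in ColGFP. Levels below are CPM, which are counts relative to the library's total after TMM scaling, as mean ± SD of 3 libraries, and fold changes come from a quasi-likelihood test in edgeR, with p-values adjusted by Benjamini-Hochberg across every gene tested. Foxf1, listed as Foxf1a, averaged 101 ± 13.1 CPM in DBL, 246 ± 28.5 in TDonly and 59.7 ± 4.47 in ColGFP, so that the population sorted without the Foxf1 reporter still held its transcript. Col1a1, a chain of type I collagen, averaged 11668 ± 1908 CPM in DBL, 1144 ± 669 in TDonly and 7904 ± 2577 in ColGFP. The libraries called replicate 1 carry lower sequencing-core numbers than the other 6, and they stood apart in all 3 populations. The chi-square statistic per degree of freedom between replicates was 53.8 to 98.8 for pairs with replicate 1, against 14.6 for the other DBL pair, 8.30 for the other TDonly pair and 5.32 for the other ColGFP pair. No label calls the numbers a batch. Levels are given below for each library, and population comparisons for all 9 libraries and for the higher-numbered series alone. The lower-numbered series holds 1 library of each population and has no such comparison.

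In mm10 with the GENCODE M21 annotation, Car4 lies on chromosome 11 (84957786 to 84966044, plus strand), Prx on chromosome 7 (27499324 to 27520214, plus), Kit on chromosome 5 (75574916 to 75656722, plus) and Glp1r on chromosome 17 (30901817 to 30940791, plus). Plvap lies on chromosome 8 (71497765 to 71511752, minus), Cd93 on chromosome 2 (148436640 to 148443563, minus) and Emcn on chromosome 3 (137341067 to 137432185, plus). The antisense gene Gm15541 shares 300 bases with the exons of Prx, 5.38% of their length, and without a known strand setting its reads cannot be told from those of Prx.

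Promoter windows are shown because the 7 genes moved together across the populations and because one of the sort reporters marks a forkhead factor. Windows from RefSeq (GRCm38.p6) were used for 5 of the 7 genes, not for Plvap and Cd93, all on the plus strand. They run from 250 bases before to 50 bases after the start annotated by RefSeq. That start differs from the GENCODE start given above, except for Prx. They are Car4 at chr11:84957504-84957803, Prx at chr7:27499074-27499373, Kit at chr5:75574737-75575036, Glp1r at chr17:30901617-30901916 and Emcn at chr3:137340828-137341127. Capitals mark exact matches, searched on both strands, to any of 4 short motifs. The forkhead motif was TGTTTA. The motif for ETS factors was AGGAAG. For SOX factors it was AACAAT. For GATA factors it was AGATAA.
Car4: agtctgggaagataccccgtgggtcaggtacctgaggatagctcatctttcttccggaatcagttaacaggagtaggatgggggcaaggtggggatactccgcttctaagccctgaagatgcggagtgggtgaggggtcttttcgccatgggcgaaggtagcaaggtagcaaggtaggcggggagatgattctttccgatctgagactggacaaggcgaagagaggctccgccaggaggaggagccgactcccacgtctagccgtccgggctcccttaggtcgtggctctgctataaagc
Prx: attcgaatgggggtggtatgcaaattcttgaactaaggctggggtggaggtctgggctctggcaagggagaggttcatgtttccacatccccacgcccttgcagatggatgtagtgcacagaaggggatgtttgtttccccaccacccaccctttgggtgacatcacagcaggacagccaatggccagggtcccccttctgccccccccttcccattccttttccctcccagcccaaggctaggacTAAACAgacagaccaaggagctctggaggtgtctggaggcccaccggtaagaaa
Kit: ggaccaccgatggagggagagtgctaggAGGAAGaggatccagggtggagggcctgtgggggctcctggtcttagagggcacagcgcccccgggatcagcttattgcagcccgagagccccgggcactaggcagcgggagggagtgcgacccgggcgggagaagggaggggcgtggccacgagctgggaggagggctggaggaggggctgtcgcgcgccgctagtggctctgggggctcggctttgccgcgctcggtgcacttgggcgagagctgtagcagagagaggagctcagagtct
Glp1r: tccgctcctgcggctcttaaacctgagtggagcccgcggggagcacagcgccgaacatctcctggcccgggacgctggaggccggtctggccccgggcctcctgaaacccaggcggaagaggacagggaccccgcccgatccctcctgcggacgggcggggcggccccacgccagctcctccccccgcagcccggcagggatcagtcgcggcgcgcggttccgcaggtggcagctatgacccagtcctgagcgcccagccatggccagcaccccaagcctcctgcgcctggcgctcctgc
Emcn: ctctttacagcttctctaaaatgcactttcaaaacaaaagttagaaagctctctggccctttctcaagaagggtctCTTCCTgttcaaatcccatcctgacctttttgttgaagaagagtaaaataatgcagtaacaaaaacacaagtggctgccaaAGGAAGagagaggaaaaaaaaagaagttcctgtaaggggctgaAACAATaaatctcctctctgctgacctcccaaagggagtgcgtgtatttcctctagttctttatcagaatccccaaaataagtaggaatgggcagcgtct

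The Prx window held a forkhead match on the reverse strand that spans the annotated start, the Kit window an ETS match, and the Emcn window 2 ETS matches, 1 on each strand, and a SOX match. No match shared bases with another, and no window held a GATA match. The Car4 and Glp1r windows held none of these letters. Among 32851 RefSeq promoter windows of the same length, 13.4% held the forkhead motif, 35.4% the ETS motif, 10.7% the SOX motif and 11.2% the GATA motif. The G and C content was 57.3% for Car4, 56.7% for Prx, 69% for Kit, 73.7% for Glp1r and 41% for Emcn. A match describes the letters and does not show binding.

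Of the aerocyte-linked genes, Car4 encodes a membrane-anchored carbonic anhydrase of the capillary lumen. Its levels were 54.2, 62.2 and 65.9 CPM in the DBL libraries, 160, 182 and 212 CPM in TDonly and 15.3, 18.2 and 15.1 CPM in ColGFP. Every DBL library lay above every ColGFP library and below every TDonly library. Car4 was 3.75-fold higher in DBL than in ColGFP (log2 fold change 1.91 ± 0.14 SE, adjusted p = 3.00e-05). It was 3.04-fold lower in DBL than in TDonly (-1.60 ± 0.13, adjusted p = 7.02e-05), and 11.4-fold higher in TDonly than in ColGFP (3.51 ± 0.14, adjusted p = 2.48e-07).

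Prx encodes periaxin, a PDZ-domain scaffold best known from myelinating Schwann cells and also an aerocyte marker. Its levels were 247, 301 and 297 CPM in the DBL libraries, 654, 769 and 736 CPM in TDonly and 79.8, 69.0 and 67.3 CPM in ColGFP. The populations did not overlap, and replicate 1 was the lowest library of DBL and TDonly but the highest of ColGFP. The log2 fold change was 1.97 ± 0.12 for DBL over ColGFP (adjusted p = 1.81e-05), -1.35 ± 0.12 for DBL over TDonly (adjusted p = 8.57e-05) and 3.32 ± 0.13 for TDonly over ColGFP (adjusted p = 2.31e-07). The summed level of 6 Schwann cell markers was 74.8 to 130 CPM in DBL, 37.1 to 97.9 in TDonly and 93.0 to 176 in ColGFP, with no gene at 0 in all libraries. Of the 6, 2 were higher and 1 was lower in TDonly than in ColGFP, and the part of Schwann cells in the Prx level was not tested.

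Of the genes linked to general capillary cells, Kit encodes the receptor tyrosine kinase for stem cell factor. Its levels were 252, 240 and 235 CPM in DBL, 682, 663 and 677 CPM in TDonly and 82.8, 58.6 and 61.4 CPM in ColGFP. The TDonly libraries lay closer together for Kit than for any other of the 7 genes, with an SD of 1.47% of the mean, and the populations did not overlap. The log2 fold change was 1.84 ± 0.13 for DBL over ColGFP (adjusted p = 3.38e-05), -1.48 ± 0.13 for DBL over TDonly (adjusted p = 8.70e-05) and 3.32 ± 0.14 for TDonly over ColGFP (adjusted p = 3.05e-07).

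Kit also marks mast cells. Of 7 mast cell markers, Mcpt4, Cma1, Tpsb2, Ms4a2 and Fcer1a had 0 to 8 counts in every library and were not tested, with Ms4a2 at 0 in all DBL libraries and Fcer1a at 0 in all ColGFP libraries. Cpa3, a mast cell protease, averaged 0.833 CPM in DBL, 0.446 in TDonly and 1.44 in ColGFP. The summed level of the list was 30.4 to 31.7 CPM in DBL, 56.98 to 69.4 in TDonly and 20.1 to 31.8 in ColGFP, nearly all of it Hdc, the histamine-forming enzyme. Hdc averaged 29.9 CPM in DBL, 60.1 in TDonly and 24.5 in ColGFP. Like Kit, it was lower in DBL than in TDonly (log2 fold change -1.005 ± 0.16, adjusted p = 0.00144) and higher in TDonly than in ColGFP (1.29 ± 0.17, adjusted p = 0.000170), while its difference between DBL and ColGFP did not pass (0.29 ± 0.16, adjusted p = 0.315). The part of mast cells in the Kit level was not tested.

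Glp1r encodes the receptor for the gut hormone GLP-1. Its levels were 62.1, 79.8 and 77.4 CPM in DBL, 179, 232 and 222 CPM in TDonly and 17.0, 14.3 and 14.9 CPM in ColGFP. The populations did not overlap, and replicate 1 was, as for Prx, the lowest library of DBL and TDonly and the highest of ColGFP. Glp1r was 4.74-fold higher in DBL than in ColGFP (log2 fold change 2.24 ± 0.14, adjusted p = 1.84e-05). It was 2.89-fold lower in DBL than in TDonly (-1.53 ± 0.14, adjusted p = 8.29e-05). In TDonly over ColGFP the log2 fold change was 3.77 ± 0.15 (adjusted p = 2.37e-07).

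Plvap encodes the protein that forms the diaphragms of endothelial fenestrae and caveolae. Its levels were 557, 265 and 284 CPM in DBL, 1265, 848 and 871 CPM in TDonly and 77.2, 61.0 and 51.5 CPM in ColGFP. Replicate 1 was the highest library of every population, and in DBL the SD reached 44.2% of the mean, yet no populations overlapped. The log2 fold change was 2.54 ± 0.31 for DBL over ColGFP (adjusted p = 0.000592), -1.43 ± 0.30 for DBL over TDonly (adjusted p = 0.00553) and 3.98 ± 0.33 for TDonly over ColGFP (adjusted p = 1.15e-05). These standard errors are more than those of Car4, Prx, Kit and Glp1r in each comparison.

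Cd93 encodes a C-type lectin-like receptor of endothelial cells that binds the matrix protein Mmrn2. It had the most counts of the 7 genes, with 1622.5, 1168 and 1103 CPM in DBL, 4323, 3489 and 3572 CPM in TDonly and 280.2, 197 and 167 CPM in ColGFP. The populations did not overlap, and replicate 1 was the highest library of each. Cd93 was 6.05-fold higher in DBL than in ColGFP (log2 fold change 2.60 ± 0.23, adjusted p = 0.000101). It was 2.92-fold lower in DBL than in TDonly (-1.55 ± 0.22, adjusted p = 0.000770). In TDonly over ColGFP the log2 fold change was 4.14 ± 0.25 (adjusted p = 1.64e-06). Its ligand Mmrn2 averaged 64.0 ± 20.1 CPM in DBL, 182 ± 36.3 in TDonly and 14.5 ± 3.76 in ColGFP, with log2 fold changes of 2.15 ± 0.26, -1.51 ± 0.25 and 3.65 ± 0.28 in the same order of comparisons (adjusted p = 0.000592, 0.00166 and 6.47e-06).

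Emcn encodes endomucin, a sialomucin of capillary and venous endothelium. Its levels were 91.6, 42.4 and 41.4 CPM in DBL, 206, 129 and 136 CPM in TDonly and 8.85, 8.41 and 7.35 CPM in ColGFP. Replicate 1 of DBL stood well above the other DBL libraries, and the SD of DBL was 49.1% of its mean, but all populations were separate. Emcn had the largest fold of the 7 genes over ColGFP, 7.13-fold in DBL (log2 fold change 2.83 ± 0.33, adjusted p = 0.000468) and 19.1-fold in TDonly (4.26 ± 0.35, adjusted p = 1.05e-05). Between DBL and TDonly the log2 fold change was -1.42 ± 0.31 (adjusted p = 0.00653), a level 2.68-fold lower in DBL.

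**Figure D1:**
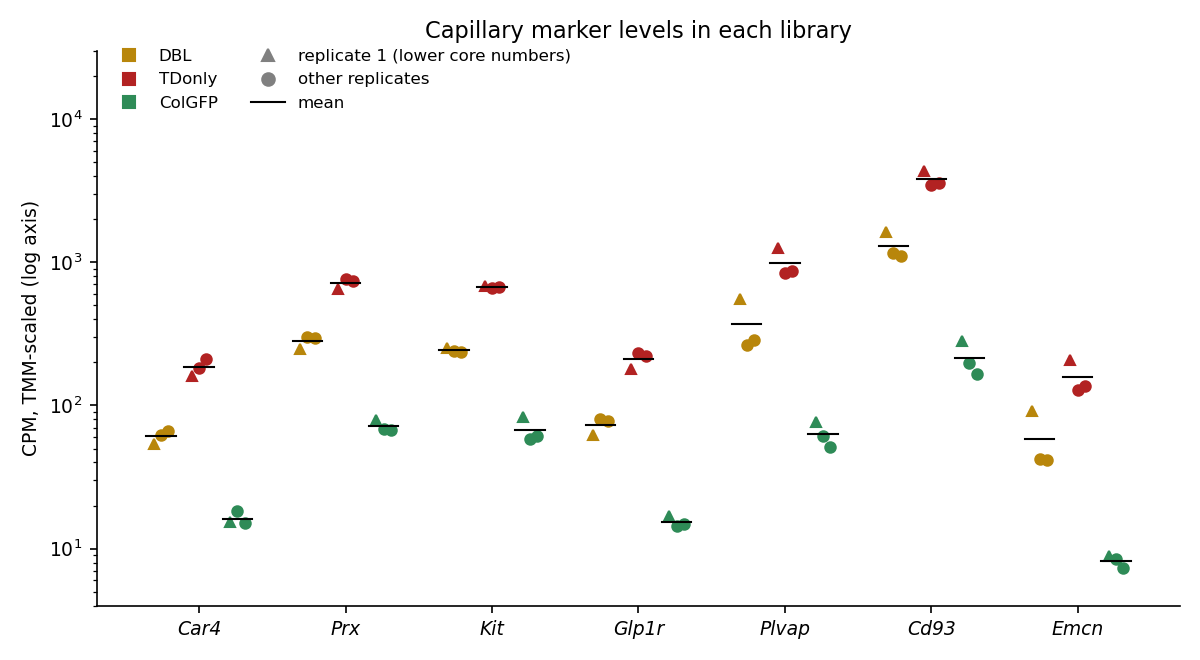
Level of each of the 7 genes in every library, in CPM on a log axis, with DBL, TDonly and ColGFP from left to right, triangles for replicate 1, circles for the other libraries and bars for population means. For every gene the TDonly libraries lie highest, the ColGFP libraries lowest and the DBL libraries between them, without overlap.

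All 7 genes passed as higher in DBL than in ColGFP, where 8.04% of all tested genes did and 6.47% passed as lower. All 7 passed as lower in DBL than in TDonly, where 12.6% of tested genes did and 17.3% passed as higher. All 7 passed as higher in TDonly than in ColGFP, where 21.6% did and 24.0% passed as lower. Without regard to the test, libraries did not overlap, in the direction of the 7 genes, for 16.9% of genes between DBL and ColGFP, 23.2% between DBL and TDonly and 27.3% between TDonly and ColGFP. In the opposite direction they did not overlap for 16.4%, 23.8% and 28.8% of genes. All 7 had libraries ordered TDonly over DBL over ColGFP with no overlap, against the 8.44% of tested genes given above, and all 7 passed in both comparisons of DBL, as did 5.22%. The median log2 fold change of the 7 genes was 2.24 for DBL over ColGFP, -1.48 for DBL over TDonly and 3.77 for TDonly over ColGFP, against -0.00, -0.04 and 0.02 over all tested genes. The comparisons share libraries, so they do not stand as separate evidence.

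**Figure D2:**
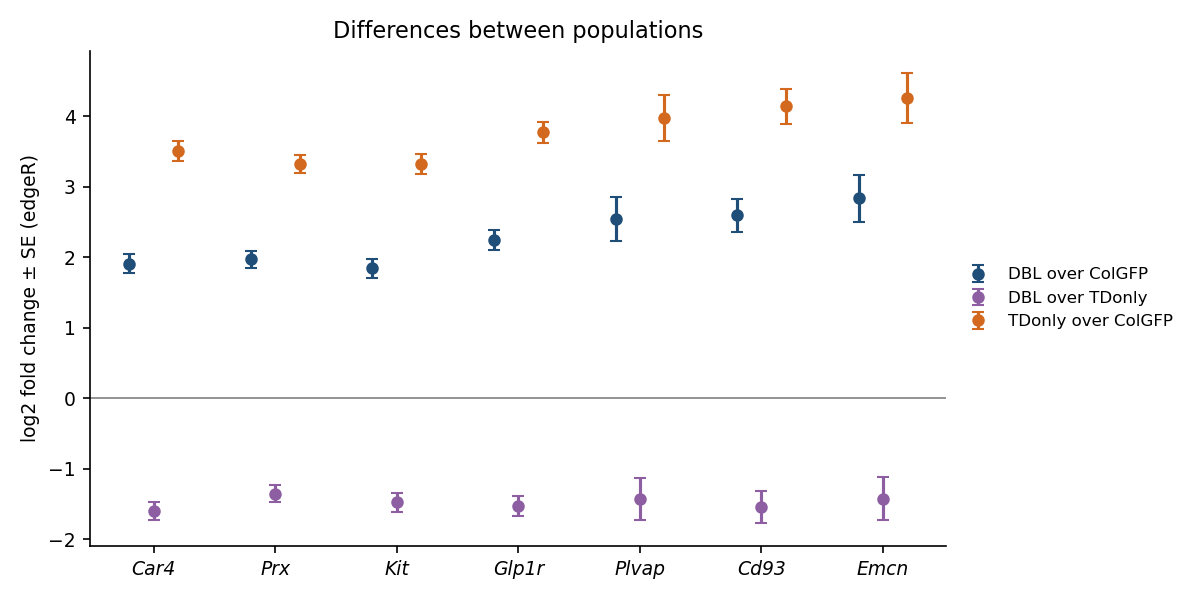
Log2 fold change with its standard error for each of the 7 genes in DBL over ColGFP, DBL over TDonly and TDonly over ColGFP. Values over ColGFP are all above 0 and spread from 1.84 to 2.83 in DBL, while those of DBL over TDonly all lie between -1.60 and -1.35.

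The fold over ColGFP differed more among the 7 genes than the fold between DBL and TDonly. For DBL over ColGFP the log2 fold changes ran from 1.84 for Kit to 2.83 for Emcn, with Car4, Prx and Kit at the low end and Plvap, Cd93 and Emcn at the high end. For DBL over TDonly they ran from -1.60 for Car4 to -1.35 for Prx. The aerocyte-linked Car4 and Prx marked both ends of that range, and the 4 general-capillary-linked genes lay between them. The standard errors of Plvap and Emcn in this comparison were 0.30 and 0.31. Without the replicate 1 libraries, Plvap (-1.60) and Cd93 (-1.59) lay below Car4 (-1.58), so Car4 no longer marked the end. Differences between genes within a comparison were not tested.

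To set genes side by side, counts were divided by exon length. In TDonly the levels were 568 ± 68.8 CPM per kb for Cd93, 501 ± 118 for Plvap, 129 ± 10.6 for Prx, 93.9 ± 13.3 for Car4, 75.7 ± 1.12 for Kit, 36.3 ± 4.79 for Glp1r and 29.0 ± 7.88 for Emcn. The order was the same in DBL and in ColGFP. In DBL, Cd93 had 194 ± 42.4 CPM per kb, Plvap 186 ± 82.1, Prx 50.5 ± 5.38, Car4 30.9 ± 3.06, Kit 27.2 ± 0.953, Glp1r 12.6 ± 1.65 and Emcn 10.8 ± 5.31. In ColGFP, the same genes had 32.2 ± 8.79, 31.8 ± 6.53, 12.9 ± 1.21, 8.24 ± 0.884, 7.59 ± 1.48, 2.65 ± 0.246 and 1.52 ± 0.143 CPM per kb. Cd93 and Plvap overlapped between libraries in all 3 populations, Car4 and Kit in DBL and ColGFP, and Glp1r and Emcn in DBL and TDonly. All other neighbours in the order were separate.

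Cd93 ranked 131st of 15341 genes by CPM per kb in DBL, 21st in TDonly and 1073rd in ColGFP, and Plvap ranked 142nd, 30th and 1081st in the same populations. Emcn, the lowest of the 7 by length, ranked 3753rd in DBL, 1209th in TDonly and 10627th in ColGFP. Prx ranked 612th in DBL, 190th in TDonly and 3035th in ColGFP. The markers thus included transcripts near the top of the TDonly libraries as well as moderate ones.

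The position of DBL between the single-reporter populations was described on the linear CPM scale, with the ColGFP mean at 0% and the TDonly mean at 100%. It was 26.5% for Car4, 28.8% for Kit, 29.5% for Glp1r, 30.3% for Cd93, 32.4% for Prx, 32.8% for Plvap and 33.8% for Emcn. The 14 pan-endothelial genes took 29.2% (Sox18) to 34.1% (Erg), with a median of 30.9%. Car4 and Kit lay below all 14 of these genes and the other 5 markers lay within their range, without a test.

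In replicate 1 libraries alone the positions ran from 26.9% for Car4 to 42.0% for Emcn, with Plvap at 40.3%. In the other 6 libraries they ran from 26.3% for Car4 to 33.8% for Prx, with Plvap at 27.2% and Emcn at 27.3%. Plvap and Emcn thus stood highest in the replicate 1 libraries and near the low end in the others. These percentages have no test, because each series holds 1 or 2 libraries of a population.

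**Figure D3:**
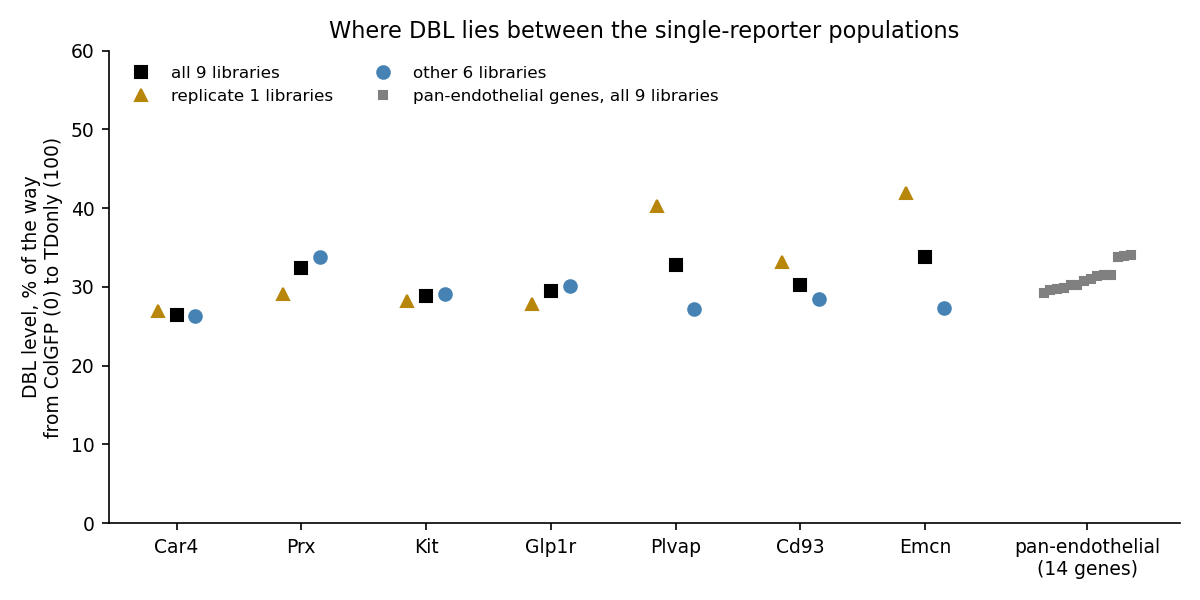
Position of the DBL mean on the linear CPM scale, from the ColGFP mean at 0% to the TDonly mean at 100%, for each of the 7 genes over all libraries, in replicate 1 libraries and in the other 6. Car4 stays near 26.5% in each, whereas Plvap and Emcn stand above 40% in replicate 1 and near 27.2% in the others.

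Ratios between the 7 genes within a library do not depend on its scaling. The log2 ratio of Prx to Glp1r was 1.95 ± 0.04 in DBL, 1.78 ± 0.08 in TDonly and 2.22 ± 0.05 in ColGFP, and the 3 populations did not overlap. It was thus the tightest ratio in DBL and set the populations apart although both genes moved the same way. Kit over Cd93 was -2.40 ± 0.25 in DBL, -2.49 ± 0.15 in TDonly and -1.65 ± 0.18 in ColGFP, and Kit over Emcn was 2.16 ± 0.60, 2.13 ± 0.35 and 3.03 ± 0.21. For both ratios the ColGFP libraries lay above all DBL and TDonly libraries, while DBL and TDonly overlapped. Car4 over Kit, an aerocyte-linked gene over a general-capillary-linked one, was -2.22 to -1.83 in DBL, -2.10 to -1.68 in TDonly and -2.44 to -1.69 in ColGFP, and all populations overlapped. These ratios were not tested.

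Replicate 1 libraries differed from the other 6 in Plvap, Emcn and Cd93. In a fit with population and series, a comparison chosen after the values had been seen, Plvap was 1.61-fold higher in replicate 1 (log2 0.69 ± 0.11, adjusted p = 0.00844), Emcn 1.62-fold (0.70 ± 0.14, adjusted p = 0.0198) and Cd93 1.39-fold (0.48 ± 0.09, adjusted p = 0.0184). Those were 3 of 7 genes higher, where 3.52% of all tested genes were, and 0 were lower, where 4.13% were. DESeq2 and limma-voom also gave 3 higher and 0 lower, and at an unadjusted p under 0.05 edgeR gave 1 lower, Car4. Car4 (-0.23 ± 0.09, adjusted p = 0.147), Prx (-0.08 ± 0.10, adjusted p = 0.666), Kit (0.19 ± 0.09, adjusted p = 0.226) and Glp1r (-0.17 ± 0.10, adjusted p = 0.380) did not pass.

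Without ColGFP replicate 1, Prx (-0.23, adjusted p = 0.0455) and Glp1r (-0.33, adjusted p = 0.00931) passed as lower. Plvap passed whichever library was left out, with an adjusted p of at most 0.0437. Cd93 missed the threshold without DBL replicate 1 (adjusted p = 0.0652), without DBL replicate 4 (0.0638) or without TDonly replicate 2 (0.0501). Emcn missed it without DBL replicate 1 (0.0691), 3 (0.0565) or 4 (0.0733), or without TDonly replicate 2 (0.0568) or 3 (0.0511). By population, replicate 1 over the mean of the others was 1.02 in DBL, 0.56 in TDonly and 0.46 in ColGFP on the log2 scale for Plvap, and 1.13, 0.64 and 0.17 for Emcn. Prx was -0.27 in DBL and -0.20 in TDonly but 0.23 in ColGFP, and Glp1r -0.34, -0.34 and 0.22.

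Markers of other cells differed between the series too. Of 14 pan-endothelial genes 8 were higher in replicate 1, among them Robo4 (0.76), Egfl7 (0.68) and Pecam1 (0.47), and of 8 fibroblast genes 4 were lower. The pan-endothelial count was 4 without DBL replicate 1 or 4, and 5 without DBL replicate 3 or TDonly replicate 2 or 3. The summed fibroblast level was 32182 CPM in replicate 1 of DBL, against 40375 and 41680 CPM in the other DBL libraries. In TDonly it was 1333 CPM in replicate 1, against 4949 and 5209 CPM, and in ColGFP 19752 CPM, against 34983 and 34225 CPM. The summed pericyte level was likewise lowest in replicate 1 of each population, 866 CPM in DBL, 141 in TDonly and 786 in ColGFP. Replicate 1 of ColGFP had the highest sums of its population for epithelial genes, 7703 CPM against 4069 and 2762, and for myeloid genes, 2413 CPM against 1214 and 929. In TDonly replicate 1 had the lowest of both, 7419 CPM against 8960 and 8719 for epithelial genes and 2001 CPM against 2616 and 2853 for myeloid genes. In DBL the epithelial sum of replicate 1 hardly differed from the next library, at 5068 CPM against 5071 and 5164. The myeloid sum was lowest in replicate 1 of DBL, at 1311 CPM against 1465 and 1495. Most of the myeloid sum was Lyz2, which averaged 1368 ± 786 CPM in ColGFP. In the fit with series Lyz2 was at 0.32, but every other myeloid gene lay below 0, from -1.60 (Itgam) to -0.38 (Cd14). None of the 9 myeloid genes passed there. The part of the markers of other cells in the difference between series was not tested.

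**Figure D4:**
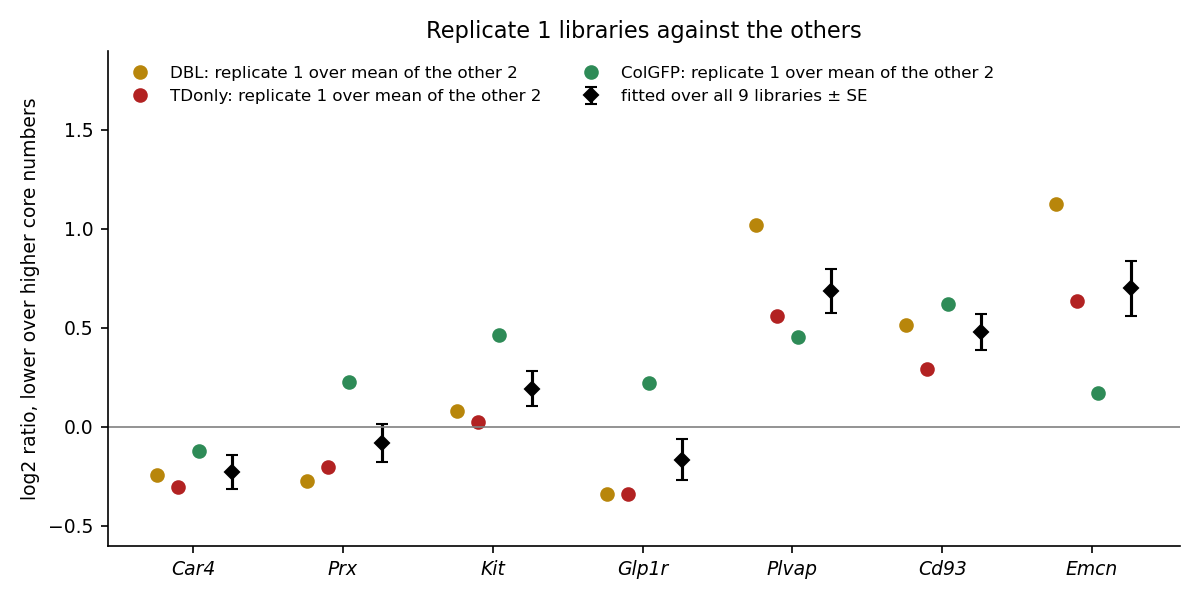
Log2 ratio of replicate 1 to the mean of the other libraries of its population, for each of the 7 genes in DBL, TDonly and ColGFP (circles), with the fitted value over all 9 libraries and its standard error (diamonds). Plvap, Cd93 and Emcn lie above 0 in every population, from 0.17 to 1.13, Car4 lies below 0 in every population, and Prx and Glp1r are below 0 in DBL and TDonly and above 0 in ColGFP.

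With the higher-numbered series alone, 2 libraries a population, all 7 genes kept their direction and passed in each comparison. For DBL over ColGFP the log2 fold changes ran from 1.97 for Car4, with Kit next, through 2.15 for Prx, 2.31 for Plvap, 2.43 for Emcn and 2.44 for Glp1r to 2.66 for Cd93. Emcn then no longer stood above the other genes. For DBL over TDonly the values ran from -1.62 for Emcn to -1.29 for Prx, and for TDonly over ColGFP from 3.44 for Prx to 4.25 for Cd93.

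Other aerocyte genes did not move as a block. Of 9 tested, 4 were higher and 1 was lower in DBL than in ColGFP, 6 were lower in DBL than in TDonly, and 6 were higher and 1 lower in TDonly than in ColGFP. Their median log2 fold changes were 0.67, -1.21 and 1.77. Apln, the ligand of Aplnr, averaged 61.9 ± 16.4 CPM in DBL, 147 ± 28.8 in TDonly and 11.5 ± 2.47 in ColGFP (DBL over ColGFP 2.44 ± 0.24, adjusted p = 0.000150, DBL over TDonly -1.24 ± 0.22, adjusted p = 0.00225). Kdr, the main VEGF receptor of endothelium, averaged 599 ± 23.0 CPM in DBL, 1530 ± 30.1 in TDonly and 131 ± 18.9 in ColGFP. Both thus followed Car4 and Prx.

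Kitl, the ligand of Kit, averaged 191 ± 52.1 CPM in DBL, 341 ± 31.4 in TDonly and 100 ± 8.92 in ColGFP, with smaller fold changes than its receptor (DBL over ColGFP 0.93 ± 0.18, adjusted p = 0.00673, DBL over TDonly -0.84 ± 0.18, adjusted p = 0.00569). Ednrb, the endothelin receptor type B, averaged 89.2 ± 22.6 CPM in DBL, 229 ± 42.9 in TDonly and 99.3 ± 41.4 in ColGFP. It was lower in DBL than in TDonly (-1.36 ± 0.29, adjusted p = 0.00650), while its difference between DBL and ColGFP did not pass (-0.16 ± 0.29, adjusted p = 0.789) and turned to 0.44 (adjusted p = 0.00114) in the higher-numbered series alone. Tbx2, a T-box transcription factor also of lung mesenchyme, averaged 196 ± 18.3 CPM in DBL, 209 ± 7.20 in TDonly and 545 ± 18.8 in ColGFP. It was lower in DBL than in ColGFP (-1.47 ± 0.10, adjusted p = 2.16e-05), in the direction opposite to Car4, and its difference between DBL and TDonly did not pass (-0.09 ± 0.10, adjusted p = 0.514).

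Most other general capillary genes moved in the direction of the 7. Of 10 tested, 8 were higher in DBL than in ColGFP, 8 were lower in DBL than in TDonly and 10 were higher in TDonly than in ColGFP, with medians of 2.04, -1.36 and 3.42. In the higher-numbered series alone 8 of 10 were higher in DBL than in ColGFP, beside 6 of 9 aerocyte genes, and the difference between these lists was not tested. Gpihbp1, which carries lipoprotein lipase to the capillary lumen, averaged 50.5 ± 10.5 CPM in DBL, 142 ± 5.37 in TDonly and 9.48 ± 3.08 in ColGFP (DBL over ColGFP 2.42 ± 0.24, adjusted p = 0.000165, DBL over TDonly -1.49 ± 0.22, adjusted p = 0.000907). Aplnr, the apelin receptor, averaged 95.2 ± 8.10 CPM in DBL, 262 ± 8.83 in TDonly and 17.3 ± 4.76 in ColGFP. Lpl, the lipase itself, differed little, with 250 ± 37.8 CPM in DBL, 270 ± 11.6 in TDonly and 185 ± 37.2 in ColGFP, and passed in neither comparison of DBL (0.43 ± 0.16, adjusted p = 0.116, and -0.11 ± 0.16, adjusted p = 0.640). Its call between TDonly and ColGFP (0.54 ± 0.16, adjusted p = 0.0209) was lost without TDonly replicate 2 (adjusted p = 0.0566), TDonly replicate 3 (0.0581) or ColGFP replicate 1 (0.0542). The other exceptions were Adgrl3, listed as Lphn3, between DBL and ColGFP (0.13 ± 0.16, adjusted p = 0.671) and Cxcl12 between DBL and TDonly (-0.77 ± 0.27, adjusted p = 0.0538).

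**Figure D5:**
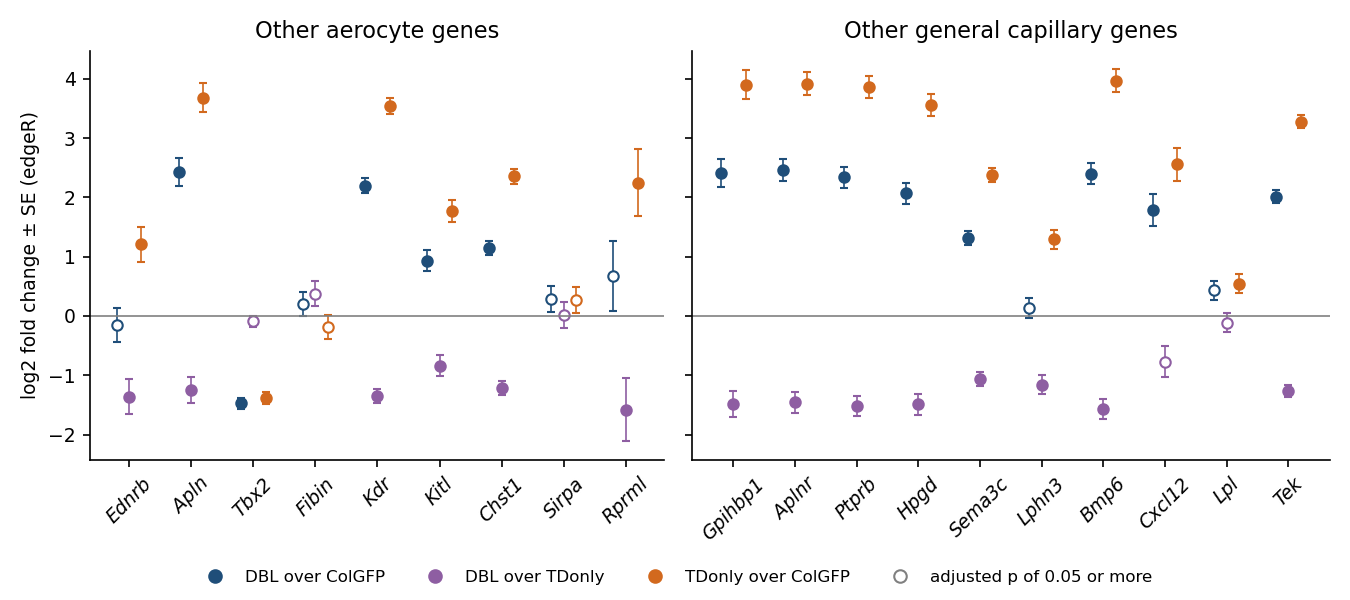
Log2 fold change with its standard error of the other aerocyte and general capillary genes in DBL over ColGFP, DBL over TDonly and TDonly over ColGFP. Most general capillary genes lie together, whereas among aerocyte genes Tbx2 lies below 0 over ColGFP and Ednrb lies near 0 in DBL over ColGFP.

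Genes of endothelium as a whole moved in the same way as the 7 markers. All 14 on the pan-endothelial list were higher in DBL than in ColGFP, lower in DBL than in TDonly and higher in TDonly than in ColGFP, with median log2 fold changes of 2.36, -1.49 and 3.86. Cdh5, the endothelial adherens junction cadherin, averaged 1133 ± 181 CPM in DBL, 3309 ± 213 in TDonly and 214 ± 45.8 in ColGFP. The summed level of the list was 3660 to 4957 CPM in DBL, 10746 to 12681 in TDonly and 719 to 1036 in ColGFP. No gene of the list was at 0 in all libraries, and the part of the endothelial content of each population in the marker levels was not tested.

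Genes of other vessels and cells gave mixed counts. Of 5 lymphatic genes, 2 were higher in DBL over ColGFP, 5 lower in DBL over TDonly, and 5 higher in TDonly over ColGFP. Of 7 arterial genes, 5 were higher and 1 lower in DBL over ColGFP, 4 were lower in DBL over TDonly, and 5 were higher and 1 lower in TDonly over ColGFP. Of 6 venous genes, 5 were higher in DBL over ColGFP, 1 was higher and 2 were lower in DBL over TDonly, and 4 were higher and 1 lower in TDonly over ColGFP. Of 8 fibroblast genes, 1 was lower in DBL than in ColGFP, 8 were higher in DBL than in TDonly and 8 were lower in TDonly than in ColGFP. Of 8 pericyte genes, 1 was higher and 1 lower in DBL over ColGFP, 5 were higher in DBL over TDonly, and 3 were higher and 5 lower in TDonly over ColGFP. Their summed levels in DBL, 32182 to 41680 CPM for fibroblast genes and 866 to 1154 CPM for pericyte genes, stood beside 1333 to 5209 and 141 to 265 CPM in TDonly and 19752 to 34983 and 786 to 1064 CPM in ColGFP. Of 9 myeloid genes, 1 was lower in DBL than in TDonly, and the median log2 fold change was -0.44 for DBL over ColGFP and 0.62 for TDonly over ColGFP, with summed levels of 1311 to 1495 CPM in DBL, 2001 to 2853 in TDonly and 929 to 2413 in ColGFP. Of 7 epithelial genes, 1 was lower in DBL than in TDonly and 4 were higher in TDonly than in ColGFP, the direction of the 7 markers, with summed levels of 5068 to 5164 CPM in DBL, 7419 to 8960 in TDonly and 2762 to 7703 in ColGFP. Lyz2 made up most of the myeloid sums, averaging 1319 CPM in DBL, 2263 in TDonly and 1368 in ColGFP. Sftpc made up most of the epithelial sums, averaging 4632, 7642 and 4496 CPM in the same populations. All 3 populations thus held transcripts of several cell types, and the part of these in the marker levels was not tested.

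Over the 9 libraries, Pearson's r of log2 CPM between the 7 genes ran from 0.956 (Car4 with Emcn) to 0.9997 (Prx with Glp1r), with Plvap and Emcn at 0.998. The points are 3 sets of libraries far apart in level, so r is high for any pair with this order and is a description. The genes most like each marker, among 8863 averaging at least 10 CPM, followed it at r of 0.997 or above. For Car4 they were Tspan18, Fmo1 and Cd97, for Prx Ahr, Klhl5 and Tspan18, and for Glp1r Ahr, Fam124b and Hpgd. Ahr, the aryl hydrocarbon receptor, averaged 165 ± 10.04 CPM in DBL, 432 ± 28.5 in TDonly and 40.9 ± 2.62 in ColGFP.

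For Kit the most like genes were Krt80, Elk3 and Slc9a3r2, with the keratin gene Krt80 at 56.2 ± 3.15 CPM in DBL, 150 ± 9.56 in TDonly and 17.2 ± 3.55 in ColGFP. For Cd93 they were Pecam1, Tie1 and Disp2, with the endothelial adhesion molecule Pecam1 at 664 ± 154 CPM in DBL, 1911 ± 201 in TDonly and 123 ± 32.1 in ColGFP. For Plvap they were B3gnt3, Zfp366 and Pdgfb, and for Emcn B3gnt3, Gimap4 and Nova2. B3gnt3, a glycan-extending transferase, was shared by Plvap and Emcn and averaged 21.4 ± 8.42 CPM in DBL, 57.6 ± 14.1 in TDonly and 3.90 ± 0.498 in ColGFP. Like both markers, it varied more among the DBL libraries, relative to its mean, than Kit did.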

How the data were processed

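RNA-seq was analysed for 9 libraries of 3 sorted populations, grouped by the sample titles. The authors deposited raw read counts per gene, whole numbers that they did not normalise; the submitters' processing notes name cutadapt, TopHat and HTSeq as tools and mm10 as the build. Their versions, the annotation and the strand setting are not given in the sources used. A further 3 columns of the table correspond to no sample and were left aside. Depth was 17820969 to 26147475 counts per library, which limits precision for genes of low count.

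Genes were kept by filterByExpr with a minimum count of 10 (15550 of 19348). All 9 libraries entered a single quasi-likelihood fit of population means with TMM factors (edgeR 4.0.16, limma 3.58.1, R 4.3.3), with 6 residual and 3.42 prior degrees of freedom. Two-sided p-values were adjusted by Benjamini-Hochberg across every gene tested, and 0.05 was the threshold. A standard error is the log2 fold change divided by the square root of the F statistic. Exon lengths came from GENCODE M21, matched for 19008 genes (17345 by symbol, 1663 by unique synonym); ranks cover 15341 tested genes.

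The 12 gene lists held 97 entries, of which 96 were in the table and 91 were tested; Ccl21a is not analysed here. The values of 1 listed gene are not reported here. The named genes were the 7 markers, the listed genes and, per marker, the 3 genes with the highest Pearson's r of log2 CPM (prior count 2), leaving out the markers and unnamed gene models. The markers and lists were chosen with earlier results of these data known, and the comparison of replicate 1 with the other libraries after its values had been seen. Alternatives were DESeq2 size factors, library totals, DESeq2 1.42.0, limma-voom, no filter, 1 CPM in 3 libraries, only the populations compared, the replicate number as a block, the core-number series as a covariate or alone, and leaving out each library. The procedure was tested on simulated data, with counts drawn independently for each library and without a difference between the series.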

Additional observations from a re-analysis of the deposited data

How the results depend on the processing

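In the 3 population comparisons, all 133 values of the 7 markers (7 genes under 19 alternatives) kept their direction and passed in each comparison. The highest adjusted p was 0.00542 for DBL over ColGFP, 0.0344 for DBL over TDonly (Emcn) and 0.000180 for TDonly over ColGFP. Counts over all tested genes moved more, and the cause was not tested. For DBL over ColGFP (1250 higher, 1006 lower), the higher-numbered series alone gave 2543 higher and 1969 lower, and leaving out a library gave 845 to 1488 higher and 581 to 1298 lower (669 without DBL replicate 1, 660 without DBL 3, 581 without DBL 4, 617 without ColGFP 2 and 623 without ColGFP 3). For DBL over TDonly (2692 higher, 1965 lower), that series alone gave 3031 lower, and leaving out a library gave 1155 (without DBL replicate 4) to 2019 lower. Scaling by library totals gave 4363 higher and 2998 lower for TDonly over ColGFP, against 3355 higher and 3727 lower with TMM, and moved the median of all genes by 0.15 on the log2 scale, well below the markers' changes. For replicate 1 over the other libraries (548 higher, 642 lower), DESeq2 gave 1203 lower, and leaving out a library gave 203 (without DBL replicate 4) to 1259 higher and 244 (without DBL replicate 4) to 1304 lower, both high values without ColGFP replicate 1. The markers then numbered 1 to 3 higher and 0 to 2 lower, and of 84 marker values under 12 alternatives 74 kept their call, 8 lost it and 2 gained it. With the replicate block, the markers kept 7, 7 and 7 calls, and DBL over ColGFP had 955 higher and 626 lower genes. After each population's mean log2 CPM was subtracted, same-numbered libraries correlated at 0.102, 0.0450 and 0.0792 between TDonly and ColGFP, not all over 0.1. The values were 0.527 and 0.232 between DBL and TDonly, and 0.0926 and 0.0156 between DBL and ColGFP. DBL shares only 2 numbers with each, so the replicate numbers were not taken to pair the samples. By core number, DBL 3 stands beside ColGFP 2 and TDonly 2, and DBL 4 beside ColGFP 3 and TDonly 3. Those sets gave 0.306 and 0.340 between DBL and TDonly, and 0.0143 and 0.122 between DBL and ColGFP. A block by these sets was not run. Of 1140 values of 20 other named genes, 1127 kept their call, 3 lost it and 10 gained it; Cxcl12 passed between DBL and TDonly in 6 of them. Genes of low count, such as Rprml and the mast cell genes, are limited by depth.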
